A study of Mus musculus with 8 samples.

Results

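The *Cyp2c* genes of mouse encode cytochrome P450 enzymes of the endoplasmic reticulum, and 10 of them, chosen by name, were followed here in liver RNA: *Cyp2c29*, *Cyp2c37*, *Cyp2c38*, *Cyp2c39*, *Cyp2c40*, *Cyp2c50*, *Cyp2c54*, *Cyp2c55*, *Cyp2c67* and *Cyp2c69*. All 10 were among the 55416 gene identifiers of the deposited table, and 9 passed the filter on low values and were tested. The 8 libraries came from livers of mice fed the HFMCD diet for 9 weeks. In 4 of them (floxed controls, Alb-cre-) the albumin-driven Cre recombinase was absent, and in the other 4 (hepatocyte knockouts, Alb-cre+) Cre was present to delete *Smpd3*, the neutral sphingomyelinase gene, in hepatocytes. The series' design text describes a Cre-loxP deletion to study *Smpd3* in diet-induced steatohepatitis. All groups share the diet, no group without it was analysed here, and the presence of Cre cannot be told apart from the loss of *Smpd3*.

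CYP2C enzymes take electrons from the P450 reductase POR and insert 1 oxygen atom into drugs, steroids and fatty acids. Several of them act as epoxygenases, which turn arachidonic and linoleic acid into epoxides that act as lipid signals, and the soluble epoxide hydrolase EPHX2 converts these to diols. Liver is the main site of their expression, much of it in hepatocytes around the central vein. The nuclear receptors CAR (*Nr1i3*) and PXR (*Nr1i2*), the hepatocyte factor HNF4A and the sex-dependent pattern of growth hormone release all regulate members of the family.

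The genes sit side by side on chromosome 19. In the GENCODE M21 annotation, used here for gene order and transcripts, *Cyp2c55* comes first of the members, followed by *Cyp2c29*, *Cyp2c38*, *Cyp2c39*, *Cyp2c67*, *Cyp2c40*, *Cyp2c69*, *Cyp2c37*, *Cyp2c54* and *Cyp2c50*. Of the relatives outside the list, *Cyp2c68* lies between *Cyp2c67* and *Cyp2c40*, *Cyp2c70* follows *Cyp2c50*, and *Cyp2c23* lies farther along the same chromosome. The upstream sequence of 5 members is shown: *Cyp2c29* and *Cyp2c38*, whose groups did not overlap, their neighbour *Cyp2c39*, and *Cyp2c37* and *Cyp2c50*, which like *Cyp2c39* had overlapping groups. *Cyp2c55*, whose groups also did not overlap, is not shown. Each line gives the 250 bases before the annotated start, 5′ to 3′, from RefSeq on the build GRCm38.p6. Capitals mark CAAAGTC, the core of the sequence bound by HNF4A, on either strand.
Cyp2c29, chr19:39286835-39287084, plus strand: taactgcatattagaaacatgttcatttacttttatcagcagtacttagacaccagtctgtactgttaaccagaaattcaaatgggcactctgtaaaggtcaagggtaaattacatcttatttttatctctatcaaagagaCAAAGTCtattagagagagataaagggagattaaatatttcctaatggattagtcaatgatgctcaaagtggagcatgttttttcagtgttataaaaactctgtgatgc
Cyp2c38, chr19:39463076-39463325, minus strand: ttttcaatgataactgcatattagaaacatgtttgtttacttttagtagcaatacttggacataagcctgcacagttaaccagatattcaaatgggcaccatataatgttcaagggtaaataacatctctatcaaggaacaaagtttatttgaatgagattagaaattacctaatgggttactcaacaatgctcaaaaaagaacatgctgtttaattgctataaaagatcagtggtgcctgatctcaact
Cyp2c39, chr19:39510572-39510821, plus strand: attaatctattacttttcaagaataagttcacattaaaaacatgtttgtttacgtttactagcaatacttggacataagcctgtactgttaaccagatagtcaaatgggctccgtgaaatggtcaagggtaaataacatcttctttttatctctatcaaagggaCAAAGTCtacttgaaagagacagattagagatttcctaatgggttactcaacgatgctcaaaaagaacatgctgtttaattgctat
Cyp2c37, chr19:39992174-39992423, plus strand: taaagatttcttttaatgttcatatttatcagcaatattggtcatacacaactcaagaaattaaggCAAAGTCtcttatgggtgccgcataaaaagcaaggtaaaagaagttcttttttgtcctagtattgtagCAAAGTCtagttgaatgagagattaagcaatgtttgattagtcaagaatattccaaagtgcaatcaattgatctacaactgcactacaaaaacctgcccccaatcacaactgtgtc
Cyp2c50, chr19:40089429-40089678, plus strand: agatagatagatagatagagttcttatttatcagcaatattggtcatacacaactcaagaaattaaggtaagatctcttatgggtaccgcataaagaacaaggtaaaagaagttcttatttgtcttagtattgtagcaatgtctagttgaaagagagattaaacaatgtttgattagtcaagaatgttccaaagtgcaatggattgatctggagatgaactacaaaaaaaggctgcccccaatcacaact

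RefSeq windows were found for 9 of the 10 members, all but *Cyp2c54*. CAAAGTC was present in 6 of these 9 windows and in 3.84% of the 32851 windows of the same length upstream of all RefSeq starts. In *Cyp2c29* its first base lay at -109 from the start, and in *Cyp2c39* at -86. The window of *Cyp2c38* holds no match, nor do those of *Cyp2c50* and *Cyp2c55*. The longer form CAAAGTCCA, which contains the core, was present in 3 member windows, those of *Cyp2c40*, *Cyp2c67* and *Cyp2c69*, and in 0.384% of all windows. These 3 windows, also among the 6 with the core, were 92.9% to 98.6% identical by pair. Their matches are therefore not separate occurrences to set against the share of all windows. The windows of *Cyp2c29* and *Cyp2c39*, both with the core, were 81.9% identical over 227 aligned bases, and the same limit applies to them. The forkhead core TGTTTAC was present in the windows of *Cyp2c38* and *Cyp2c39*, and in 3.17% of all windows. Those windows are also much alike, as given below, so these matches are not separate occurrences either. The DR4 repeat, a form of the site used by CAR and PXR made of AGGTCA repeated after a gap of 4 bases, and the STAT5 sequence TTCNNNGAA were in none of the 9, and in 0.0152% and 7.02% of all windows. A match of letters describes the window and does not show that a factor binds there, and the core was chosen after the sequences were seen. The windows of *Cyp2c38* and *Cyp2c39* were 89.6% identical over 221 aligned bases, those of *Cyp2c37* and *Cyp2c50* 88.4% over 242, and those of *Cyp2c29* and *Cyp2c38* 82.0% over 228.

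Values are TPM, each gene's transcript abundance scaled to its length and to a fixed library total, so sequencing depth is unknown and no counting interval is given. The libraries summed to between 994563 and 995449 TPM, and had between 12115 and 12890 genes at 1 TPM or more. The lowest of these, floxed control 4, also had the largest share of TPM in mitochondrially encoded genes (8.92%, against 6.72% to 8.04% in the others). *Smpd3*, the deleted gene, stood at 9.58 ± 2.65 TPM in controls and 1.88 ± 0.862 TPM in knockouts (SD, n = 4 each). Its groups did not overlap, with a log2 fold change of -1.89 ± 0.24 (SE) and a limma p of 0.0300 after Benjamini-Hochberg adjustment. The names of 11 of 12 hepatocyte markers matched the table, and all 11 were expressed, with a summed level of 79539.7 to 92610 TPM in controls and 71155 to 80279.8 TPM in knockouts, most of it from *Alb*. Of the 11, 9 had a log2 fold change below 0, where 64.6% of all tested genes were above 0. The groups did not overlap in *Apoa1*, *Arg1* and *Ahsg*, lower in knockouts, and in *Serpinc1*, higher, with none past the adjusted threshold. Such a lack of overlap was found in 1.46% (lower) and 3.29% (higher) of all tested genes. The part of these marker differences in the *Cyp2c* values was not tested. The Y-linked genes *Ddx3y*, *Kdm5d*, *Uty* and *Eif2s3y* stood at 1.93 TPM or more in all 8 libraries, and the X-linked *Xist* at 0.11 TPM or less. The labels give no sex. Whether each library came from a separate animal is not stated in the labels, so the p-values here cover the spread among these libraries, which may be technical.

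*Cyp2c29* and *Cyp2c38* stood about 2 times as high in knockouts as in controls, while the abundant *Cyp2c50* had nearly equal means. None of the 9 tested members passed the limma threshold of 0.05 for p-values adjusted by Benjamini-Hochberg over all genes, in either direction. Of all 12710 genes tested, 13 (0.102%) passed, 6 higher (0.0472%) and 7 lower (0.0551%), and that count was 0 without floxed control 1, floxed control 4 or knockout 3 and 2 without floxed control 3 or knockout 2. At an unadjusted p under 0.05, 5 of the 9 were higher in knockouts (*Cyp2c29*, *Cyp2c38*, *Cyp2c39*, *Cyp2c40* and *Cyp2c55*) and none was lower, against 5.57% of all tested genes higher and 2.45% lower (8.02% in either direction). In 3 of the 9 (*Cyp2c29*, *Cyp2c38* and *Cyp2c55*) every knockout library stood above every control, as in 3.29% of all tested genes, and in none did every knockout stand below every control, as in 1.46% of them. The median log2 fold change of the 9 was 0.40, where that of all tested genes was 0.05. The members were chosen with earlier results of these data known, so these counts describe the list and do not test it. *Cyp2c39*, *Cyp2c40* and *Cyp2c55* stood at 5.07 TPM or less in every library, and *Cyp2c40* shares much of its sequence with close copies. A positive log2 fold change means a higher level in knockouts. It was computed from log2(TPM + 1), so differences of low genes come out smaller than their TPM ratios. In bulk liver RNA, fewer cells of a type and less RNA per cell cannot be told apart.

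*Cyp2c29* (ENSMUSG00000003053) encodes an arachidonic acid epoxygenase and is a textbook target of CAR. Its level was 18.75, 25.02, 15.71 and 18.91 TPM in floxed controls 1 to 4, and 40.15, 32.77, 61.95 and 42.92 TPM in knockouts 1 to 4. The lowest knockout lay above the highest control, and knockout 3 was the highest library. The mean was 19.6 ± 3.90 TPM in controls and 44.4 ± 12.4 TPM in knockouts (SD, n = 4 each), a ratio of 2.27. The log2 fold change was 1.12 ± 0.19 (SE; 95% interval 0.70 to 1.55), with an unadjusted p of 0.000139 and a limma p of 0.0802 after Benjamini-Hochberg adjustment. By p-value it ranked 22 of the 12710 genes tested, outside the 13 that passed.

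*Cyp2c38* (ENSMUSG00000032808), the next gene along the cluster, encodes another arachidonic acid epoxygenase. Its level was 14.54, 12.41, 10.17 and 8.91 TPM in controls and 21.04, 21.09, 29.15 and 21.95 TPM in knockouts. Again no knockout overlapped a control, and knockout 3 stood apart above the other 3 knockouts, which lay within 1 TPM of one another. The mean was 11.5 ± 2.49 TPM in controls and 23.3 ± 3.92 TPM in knockouts (SD, n = 4 each), a ratio of 2.03. The log2 fold change was 0.97 ± 0.16 (SE; 95% interval 0.61 to 1.33), with a limma p of 0.0780 after Benjamini-Hochberg adjustment. It ranked 19 of 12710. Without knockout 3 the log2 fold changes of *Cyp2c38* and *Cyp2c29* were 0.86 and 0.95 (limma, Benjamini-Hochberg adjusted p = 0.174 and 0.130).

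**Figure D1:**
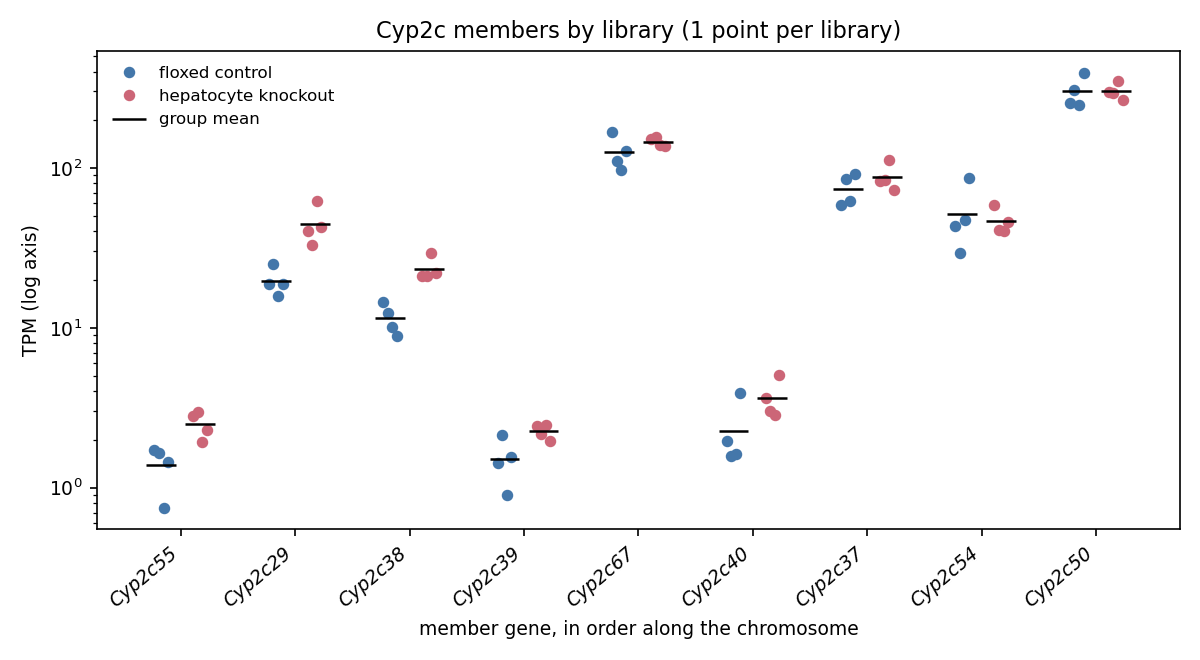
TPM (log axis) of the 9 tested members in each of the 8 libraries, in order along the chromosome; points are libraries and bars are group means (n = 4 each). The knockout points lie above all control points for *Cyp2c29*, *Cyp2c38* and *Cyp2c55* and are mixed with them for the other 6.

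*Cyp2c39*, the third of these neighbours, encodes an enzyme also known to oxidise retinoic acid and was expressed at a much lower level. It stood at 1.43, 2.14, 0.9 and 1.56 TPM in controls, against 2.44, 2.17, 2.45 and 1.97 TPM in knockouts. Knockout 4 lay below floxed control 2, so the groups overlapped. The log2 fold change was 0.40 ± 0.17 (SE; 95% interval 0.02 to 0.78), with a limma p of 0.605 after Benjamini-Hochberg adjustment. Summed over *Cyp2c29*, *Cyp2c38* and *Cyp2c39*, the level was 26.78 to 39.57 TPM in controls and 56.03 to 93.55 TPM in knockouts, a ratio of means of 2.15.

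*Cyp2c55*, a P450 gene known from intestine and as a target of CAR and PXR, was near the filter. It stood at 1.73, 1.65, 0.75 and 1.45 TPM in controls, against 2.8, 2.99, 1.92 and 2.29 TPM in knockouts. The groups did not overlap, but the highest control, at 1.73 TPM, was close to the lowest knockout, at 1.92 TPM. The log2 fold change was 0.56 ± 0.18 (SE; 95% interval 0.15 to 0.96), with a limma p of 0.392 after Benjamini-Hochberg adjustment. Intestinal markers listed at 0 in all 8 libraries were *Cdx1*, *Cdx2* and *Slc26a3*, of 8 in the list, and the summed level of that list was 104.1 to 115.7 TPM in controls and 97.1 to 124.7 TPM in knockouts, most of it from *Fabp2*, which liver also expresses.

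The most abundant member was *Cyp2c50* (ENSMUSG00000054827), which with *Cyp2c37* and *Cyp2c54* forms a group of close copies at the far end of the cluster. CYP2C50 and CYP2C54 are known to make epoxides of linoleic and arachidonic acid. *Cyp2c50* stood at 252.54, 305.88, 248.37 and 394.25 TPM in controls, against 299.08, 294.27, 347.88 and 265.36 TPM in knockouts. The knockouts all lay within the range of the controls, which was set by floxed control 4 at the top. The means were 300.3 ± 67.9 and 301.6 ± 34.2 TPM (SD, n = 4 each), and the 95% interval of the log2 fold change was -0.30 to 0.35, which excludes a doubling.

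*Cyp2c37*, another target of CAR, stood at 58.26, 84.93, 61.58 and 91.42 TPM in controls, against 83.29, 83.72, 111.69 and 72.54 TPM in knockouts. The groups overlapped, and knockout 3 was again the highest library (log2 fold change 0.25 ± 0.17 SE, 95% interval -0.13 to 0.63). *Cyp2c54* stood at 43.3, 29.21, 47 and 85.83 TPM in controls, against 58.92, 40.96, 40.45 and 46.03 TPM in knockouts. It was the only tested member with a mean fold change below 0, at -0.05 ± 0.27 (SE; 95% interval -0.64 to 0.55), and that sign turned without floxed control 4 (0.23) and without knockout 2 or 3 (0.01 in each). The interval of *Cyp2c54* is the widest of the 9 members, and does not settle whether it differed. Summed over these 3 genes, the level was 354.1 to 571.5 TPM in controls and 383.9 to 500 TPM in knockouts, a ratio of means of 1.02.

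*Cyp2c67*, *Cyp2c40*, *Cyp2c69* and the unlisted *Cyp2c68* form a second group of close copies. *Cyp2c67* stood at 167.79, 110.57, 97.1 and 127.06 TPM in controls, against 152.37, 156, 139.3 and 135.92 TPM in knockouts. The knockouts were closer together than the controls, whose highest library, floxed control 1, stood above all of them (log2 fold change 0.24 ± 0.15 SE, 95% interval -0.08 to 0.57). *Cyp2c40* stood at 1.96, 1.58, 1.63 and 3.9 TPM in controls, against 3.63, 3.03, 2.85 and 5.07 TPM in knockouts. Floxed control 4 lay among the knockouts and the other 3 controls lay below all of them (log2 fold change 0.54 ± 0.23 SE, limma, Benjamini-Hochberg adjusted p = 0.606). Without floxed control 4 the log2 fold change of *Cyp2c40* was 0.75 (limma, Benjamini-Hochberg adjusted p = 0.264). *Cyp2c69* was listed at 0 in 7 libraries and at 0.04 TPM in floxed control 3, and was not tested. *Cyp2c68* stood at 127 ± 33.8 TPM in controls and 134 ± 16.7 TPM in knockouts (SD, n = 4 each). Summed over these 4 genes, the level was 191.7 to 304.9 TPM in controls and 262.7 to 304.1 TPM in knockouts, a ratio of means of 1.11.

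**Figure D2:**
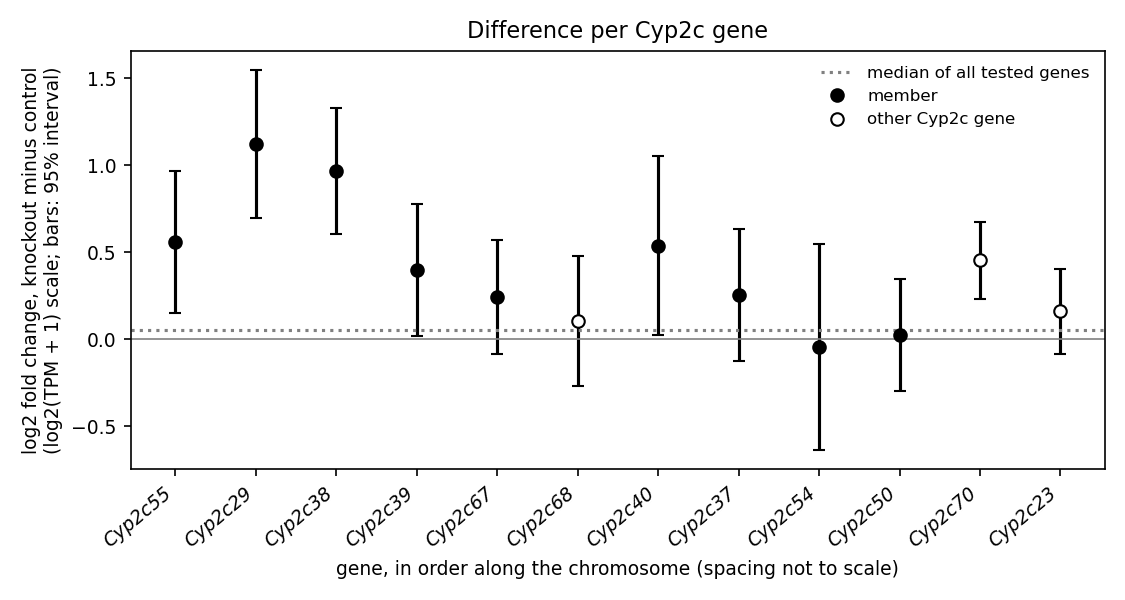
Log2 fold change of the 12 tested *Cyp2c* genes (y axis, from log2(TPM + 1), positive where knockouts are higher), in order along the chromosome; bars are 95% intervals, filled points are members and open points other *Cyp2c* genes. *Cyp2c29* and *Cyp2c38* stand at 1.12 and 0.97, and *Cyp2c50* and *Cyp2c54* close to 0.

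How much sequence each transcript shares with the rest of the family bears on how firmly its TPM can be read, since reads from shared stretches must be divided between genes. In the longest protein-coding transcript of each gene in GENCODE M21, stretches of 100 bases found unchanged in another *Cyp2c* gene made up 0% of *Cyp2c29*, *Cyp2c38*, *Cyp2c39* and *Cyp2c55*. They made up 4.70% of *Cyp2c37*, 7.59% of *Cyp2c54*, 9.40% of *Cyp2c50*, 23.7% of *Cyp2c67*, 36.3% of *Cyp2c69* and 44.1% of *Cyp2c40*. With stretches of 50 bases the shares were 2.08% for *Cyp2c29*, 7.45% for *Cyp2c38* and 11.4% for *Cyp2c39*. At that length they were 25.7% for *Cyp2c54*, 30.1% for *Cyp2c37* and 30.7% for *Cyp2c50*, rising to 52.8% for *Cyp2c67* and 72.1% for *Cyp2c40*. *Cyp2c40* and *Cyp2c68* transcripts were 98.0% identical over their aligned bases, *Cyp2c37* and *Cyp2c50* 95.8%, *Cyp2c38* and *Cyp2c39* 93.8%, and *Cyp2c29* and *Cyp2c38* 87.9%. The values of *Cyp2c40*, *Cyp2c67* and *Cyp2c69* are therefore uncertain one by one, as to a lesser degree are those of *Cyp2c37*, *Cyp2c50* and *Cyp2c54*. The sums over close copies given above do not depend on that division of reads within each group. *Cyp2c29* shares 1.96% of its stretches of 50 bases with the pseudogene *Cyp2c53-ps*. In RefSeq, which gives *Cyp2c39* another start upstream of the one shown above, the whole span of *Cyp2c39* covers *Cyp2c38* on the opposite strand. In GENCODE M21 the spans of *Cyp2c38* and *Cyp2c39* do not overlap. Whether strand was used in counting is not known here, so reads of overlapping genes may not have been told apart.

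TPM is scaled to transcript length, so levels can be ordered between genes. In the controls the members ran from *Cyp2c50* (mean 300.3 TPM) through *Cyp2c67* (126 TPM), *Cyp2c37* (74.0 TPM), *Cyp2c54* (51.3 TPM), *Cyp2c29* (19.6 TPM) and *Cyp2c38* (11.5 TPM) to *Cyp2c40*, *Cyp2c39* and *Cyp2c55* at 2.27, 1.51 and 1.40 TPM, with *Cyp2c69* at or near 0. The ranges over the 4 controls did not overlap between *Cyp2c54* and *Cyp2c29*, nor between *Cyp2c29* and *Cyp2c38*, while *Cyp2c37* overlapped *Cyp2c54* and the 3 low members overlapped one another. In the knockouts *Cyp2c29* stood at 32.77 to 61.95 TPM and overlapped *Cyp2c54*, at 40.45 to 58.92 TPM, and *Cyp2c55* passed *Cyp2c39* in mean level with overlapping ranges.

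The summed TPM of the 10 members was 560.3, 573.39, 483.25 and 733.29 in floxed controls 1 to 4, and 663.72, 637, 737.64 and 594.05 in knockouts 1 to 4. The groups overlapped, since floxed control 4 stood above 3 of the knockouts. The mean was 588 ± 105 TPM in controls and 658 ± 60.3 TPM in knockouts (SD, n = 4 each), a ratio of 1.12, and no test of the sum was made because the members were chosen with earlier results known. The ratio was 1.22 without floxed control 4, the library with the fewest detected genes, and 1.06 without floxed control 3. Floxed control 4 was the highest control in *Cyp2c50*, *Cyp2c54*, *Cyp2c37* and *Cyp2c40*. The sum is dominated by *Cyp2c50*, which made up 50.9 ± 4.02% of it in controls and 45.8 ± 1.13% in knockouts (SD, n = 4 each), while *Cyp2c29* made up 3.38 ± 0.736% and 6.70 ± 1.41%, and *Cyp2c38* 2.02 ± 0.579% and 3.53 ± 0.357%.

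**Figure D3:**
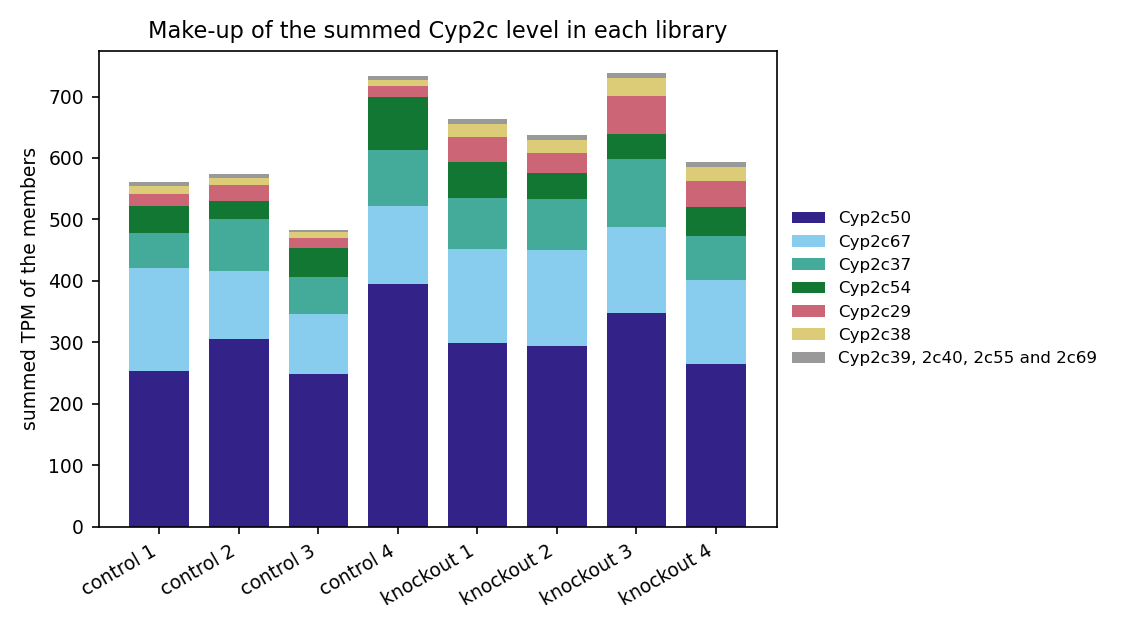
Summed TPM of the 10 members in each library (y axis, TPM), stacked by gene. *Cyp2c50* is the largest block in all 8 libraries, and floxed control 4 (733.29 TPM) and knockout 3 (737.64 TPM) are the highest.

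Of the 5 other *Cyp2c* genes that matched the table, *Cyp2c65* and *Cyp2c66*, known from intestine, stood at 0.06 TPM or less in every library and were not tested. *Cyp2c70* encodes the enzyme that makes muricholic acids in mouse liver. It stood at 175.37, 168.44, 188.33 and 188.23 TPM in controls, against 240.88, 208.85, 290.97 and 252.15 TPM in knockouts. Its groups did not overlap and knockout 3 was again the highest library, with a log2 fold change of 0.45 ± 0.10 (SE) and a limma p of 0.186 after Benjamini-Hochberg adjustment. *Cyp2c23*, also called *Cyp2c44*, another epoxygenase, stood at 157 ± 23.3 TPM in controls and 175 ± 13.9 TPM in knockouts (SD, n = 4 each), with overlapping groups. No stretch of 50 bases in *Cyp2c70* or *Cyp2c23* was shared with another *Cyp2c* gene. Summed over all 15 *Cyp2c* genes, the level ran from 899.6 to 1277 TPM in controls and from 1134 to 1344 TPM in knockouts, again with overlap.

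Genes that act with the CYP2C enzymes were examined from lists of known function, and no member of any of them passed the limma threshold. Among 9 tested epoxide hydrolase and electron donor genes the median log2 fold change was 0.01. None reached an unadjusted limma p under 0.05, where 8.02% of all tested genes did in either direction. *Ephx2*, the soluble epoxide hydrolase, stood at 270 ± 30.2 TPM in controls and 276 ± 18.7 TPM in knockouts (SD, n = 4 each). *Por*, the P450 reductase, stood at 111.75, 199.32, 73.55 and 152.51 TPM in controls and 74.27, 87.5, 127.53 and 76.63 TPM in knockouts, with overlapping groups. Among the *Cyp2j* epoxygenases, 3 of 8 passed the filter on low values, and *Cyp2j5* stood at 136 ± 9.24 and 150 ± 12.2 TPM (SD, n = 4 each).

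Among 17 tested genes that supply arachidonic acid or use it by other routes, the median log2 fold change was -0.03, and at an unadjusted p under 0.05 none was higher and 2 were lower, where 5.57% and 2.45% of all tested genes were. These were *Pla2g12a*, a secreted phospholipase A2 gene (19.0 ± 1.99 to 14.7 ± 2.59 TPM), and *Fads2*, a desaturase gene of arachidonic acid synthesis (340 ± 51.1 to 278 ± 30.8 TPM; SD, n = 4 each). Omega-hydroxylases oxidise the same fatty acids at the far end of the chain. Of 13 tested genes of this kind, from the *Cyp4a*, *Cyp4f* and *Cyp4v* families, none was higher and 2 were lower at that level, against the same 5.57% and 2.45%. The lower ones were *Cyp4a31* (23.06 to 26.93 TPM in controls and 16.46 to 23.42 TPM in knockouts) and *Cyp4f17* (4.81 to 7.68 TPM in controls and 4.69 to 4.94 TPM in knockouts). The median of that list was 0.04.

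Of 21 tested regulators of *Cyp2c* genes, 1 was higher and 2 lower at an unadjusted p under 0.05, against 5.57% and 2.45% of all tested genes. *Nr0b2*, which encodes the corepressor SHP, stood at 40.6 ± 10.8 TPM in controls and 71.0 ± 12.5 TPM in knockouts without overlap, *Foxa3* at 40.8 ± 5.52 and 28.4 ± 5.15 TPM, and *Cebpb* at 82.0 ± 27.0 and 50.4 ± 7.03 TPM (SD, n = 4 each). The receptor genes differed by less than the spread between libraries: *Nr1i3* (CAR) ran from 55.76 to 75.12 TPM in controls and from 63.35 to 89.94 TPM in knockouts, and *Nr1i2* (PXR) from 24.76 to 32.59 and from 26.93 to 31.63 TPM. *Hnf4a* stood at 181 ± 17.2 and 156 ± 20.5 TPM (limma, Benjamini-Hochberg adjusted p = 0.665). RNA levels of these receptors do not measure their activity.

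Of 14 tested CAR and PXR targets outside the family, 5 were higher and none lower at an unadjusted p under 0.05, against 5.57% and 2.45% of all tested genes. In 3 of the 14, all higher in knockouts, the groups did not overlap, as in 3.29% of all tested genes: *Cyp3a11*, the main drug-oxidising P450 of the mouse *Cyp3a* family (733.48 to 902.7 TPM in controls, 1007 to 1191 TPM in knockouts), the glutathione transferase gene *Gstm3* (246.07 to 392.14 and 435.4 to 560.82 TPM) and *Cyp2a4* (4.31 to 7.33 and 9.09 to 16.02 TPM). *Ugt1a9* stood at 26.2 ± 8.56 TPM in controls and 43.7 ± 8.27 TPM in knockouts, and *Cyp2b9* at 22.3 ± 5.28 and 37.4 ± 17.8 TPM (SD, n = 4 each). The groups of both overlapped. *Cyp2b9* was 64.07 TPM in knockout 3, the library in which *Cyp2c29* was highest, and 27.37 to 29.65 TPM in the other knockouts. *Cyp2b10*, the most used marker of CAR activation, did not pass the filter on low values. The median log2 fold change of the list was 0.09.

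Among 20 pericentral hepatocyte genes, which share the zone of much *Cyp2c* expression, 3 were higher and 3 lower at an unadjusted p under 0.05, against 5.57% and 2.45% of all tested genes, with a median of 0.09. *Oat* stood at 409 ± 81.2 and 533 ± 56.1 TPM, and *Axin2* at 5.44 ± 0.356 and 4.08 ± 0.521 TPM without overlap (SD, n = 4 each). Of 19 tested male-biased liver genes, 17 had a log2 fold change below 0 (median -0.34), and of 11 tested female-biased genes, 10 had one above 0 (median 0.33), where 64.6% of all tested genes were above 0. At an unadjusted p under 0.05, 1 male-biased gene was higher and 5 lower, and 4 female-biased genes were higher and 1 lower. Groups did not overlap in 1 male-biased gene, lower in knockouts, and in 2 female-biased genes, higher in knockouts. Of all tested genes, 1.46% were lower and 3.29% higher without overlap. *Cyp2a4* and *Cyp2b9* are on both the female-biased and the CAR and PXR lists. *Cyp2d9*, a male-biased P450, stood at 353 ± 12.5 and 245 ± 26.7 TPM without overlap (limma, Benjamini-Hochberg adjusted p = 0.0730), and *Prlr*, a female-biased receptor gene, at 11.3 ± 3.42 and 17.9 ± 2.28 TPM, also without overlap (SD, n = 4 each). Others went the other way, with overlapping groups. The female-biased *Sult1e1* stood at 11.6 ± 8.89 and 3.78 ± 1.15 TPM, and the male-biased *Elovl3* at 13.9 ± 2.20 and 18.4 ± 3.25 TPM (SD, n = 4 each). Whether these values bear on those of *Cyp2c* genes was not tested.

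Marker lists of other liver cells were also summed. The summed level of 8 sinusoidal endothelial markers was 73.89 to 168.65 TPM in controls and 97.11 to 121.83 TPM in knockouts, and that of 8 Kupffer cell and macrophage markers 300.2 to 644.2 TPM and 346.4 to 578 TPM, with no marker at 0 in all libraries. Cholangiocyte markers summed to 301.4 to 544.3 TPM and 243.7 to 715.8 TPM, and stellate cell markers to 249.1 to 546.8 TPM and 430.1 to 607.6 TPM. The knockout and control ranges overlapped in all 4 lists. In each list the lowest control was floxed control 4, the library with the fewest detected genes and the highest *Cyp2c* sum among controls. In the endothelial list the overlap rests on that library, since every other control stood above all knockouts. *Marco*, a Kupffer cell receptor gene, was 16.71 to 20.05 TPM in controls and 8.11 to 11.98 TPM in knockouts without passing the threshold (limma, Benjamini-Hochberg adjusted p = 0.0609). Of the endothelial markers 7 of 8 had a log2 fold change below 0 (median -0.25), where 64.6% of all tested genes were above 0. Their part in the *Cyp2c* values was not tested. Adipocyte markers summed to 0.58 TPM or less in every library, with *Plin1* and *Lep* listed at 0.

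The genes whose values followed *Cyp2c29* most closely over the 8 libraries were ranked by the root mean square difference between centred log2(TPM + 1) values, among 8464 genes outside the family with a mean of at least 5 TPM. The closest named genes were *Abtb2* (0.25), *Grb7* (0.26), *Kyat3* (0.28), *Rnd1* (0.28) and *Chka* (0.29), where *Cyp2c29* itself varied by 0.63 on that scale. Within the family *Cyp2c38* was closest, at 0.24, ahead of *Cyp2c70* at 0.41 and *Cyp2c39* at 0.42, and *Cyp2c54* was farthest, at 0.82. *Chka*, the choline kinase gene, was the only one of these to pass the test across all genes (36.0 ± 4.01 to 69.3 ± 10.3 TPM; SD, n = 4 each; limma, Benjamini-Hochberg adjusted p = 0.0300). For the summed TPM of the members the closest named genes were *Rabep2* (0.08), the mitochondrially encoded *mt-Co1* (0.09), and *Adck5*, *Gnl3* and *Ivd* (0.10 each), where the sum varied by 0.19. Both rankings describe these 8 libraries and were not tested.

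The call of no member depended on the choices tried. The adjusted p of *Cyp2c29* ran from 0.0579 without floxed control 2 to 0.284 with no filter on low values, and that of *Cyp2c38* from 0.0564 after median-of-ratios scaling to 0.255 with no filter (Benjamini-Hochberg, limma). The log2 fold changes stayed between 0.95 and 1.25 for *Cyp2c29* and between 0.78 and 1.08 for *Cyp2c38* in all 14 alternative fits. Since the groups of both genes do not overlap, no fit that leaves out a library could turn their sign.

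**Figure D4:**
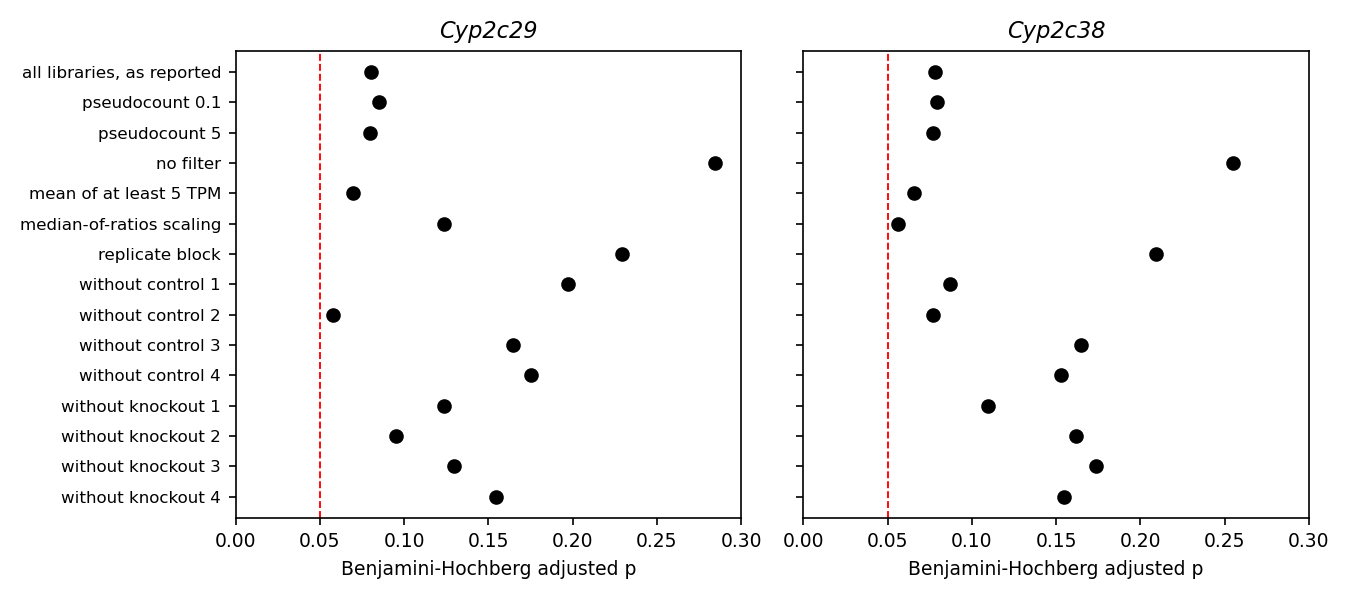
Benjamini-Hochberg adjusted p (x axis) of *Cyp2c29* and *Cyp2c38* in limma with all libraries and under each of 14 other settings (y axis); the dashed line is 0.05. All points lie to the right of the line, from 0.0579 for *Cyp2c29* and 0.0564 for *Cyp2c38* upward.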

How the data were processed

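Liver RNA of 4 floxed control and 4 hepatocyte knockout samples was sequenced from stranded total RNA libraries, per the labels' protocols. The authors deposited TPM values, rounded to 2 decimals, for 55416 mouse gene identifiers. RSEM 1.3.3 and a human build, GRCh38.p13, are listed in the submitters' processing notes, although the identifiers are of mouse. Not given in the sources used here are the aligner, annotation and use of strand. TPM keeps no sequencing depth, so no count test was run.

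Groups were taken from the sample titles, and columns were matched by the sample descriptions. Symbols were matched for 52083 identifiers. Values were transformed to log2(TPM + 1). The 12710 genes that reached 1 TPM in 4 or more of the 8 libraries were compared in limma 3.58.1 (lmFit, eBayes with trend) under R 4.3.3, with group as the only term, and p-values were adjusted over all of them by Benjamini-Hochberg with a threshold of 0.05. The script was tested on simulated data. Transcripts and windows were aligned with Biopython 1.88, with end gaps free.

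The members and lists were chosen with earlier results of these data known. Named genes were the 10 members, the other *Cyp2c* genes, *Smpd3*, up to 4 genes of smallest p per list, 5 genes of closest pattern, and known partners (*Ephx2*, *Por*, *Nr1i3*, *Nr1i2*, *Hnf4a*). *Cyp2b10*, *Elovl3*, *Xist* and the intestinal and adipocyte genes at 0 were named after their values were seen. Alternatives were other pseudocounts (0.1 and 5), testing every gene detected, keeping only genes averaging 5 TPM or more, scaling by median of ratios, the replicate number as a block, and each library left out in turn.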

Additional observations from a re-analysis of the deposited data

Results flagged for a closer look

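In groups of 4 libraries, 2 *Cyp2c* values stood apart from the other 3 by more than Dixon's test allows at the 95% level. *Cyp2c38* in the knockouts was 29.15 TPM in knockout 3, against 21.04 to 21.95 TPM in the other 3, with a gap of 0.888 of the range. *Cyp2c40* in the floxed controls was 3.9 TPM in floxed control 4, against 1.58 to 1.96 TPM in the other 3, with a gap of 0.836 of the range. Chance alone sets about 1 in 20 such groups apart, and each tested gene gave 2 groups.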

How the results depend on the processing

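The number of *Cyp2c* members past the threshold was 0 in each direction with all libraries and under every alternative that was run. The number of all genes past it was 13, and it was 8 with a pseudocount of 0.1, 6 with a pseudocount of 5, 0 with no filter and 0 with the replicate block. Leaving out 1 library gave between 0 and 12 genes: 0 without floxed control 1, floxed control 4 or knockout 3, 2 without floxed control 3 or knockout 2, and 5 without knockout 1. The ratio of summed TPM was 1.06 after median-of-ratios scaling and 1.06 to 1.22 with 1 library left out.

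The log2 fold change of *Cyp2c50* (0.03) turned to -0.038 after median-of-ratios scaling and ran from -0.057 to 0.165 with 1 library left out, below 0 without floxed control 1 (-0.05), floxed control 3 or knockout 3 (-0.04). That of *Cyp2c54* (-0.05) ran from -0.275 to 0.23, above 0 without floxed control 4 (0.23), knockout 2 (0.0084) or knockout 3 (0.01). That of *Cyp2c68* (0.11) ran from -0.033 without floxed control 3 to 0.266. None of these passed in any setting, and the cause was not tested. Every other sign among the tested *Cyp2c* genes stayed. Median-of-ratios scaling moved the median of all genes from 0.05 to 0.00.

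The replicate numbers are shared by the groups but are not said to pair samples, and the deviations of same-numbered libraries correlated at -0.15, 0.03, -0.15 and -0.20 across genes. With the number as a block, the Benjamini-Hochberg adjusted p in limma was 0.229 for *Cyp2c29* and 0.209 for *Cyp2c38*. With TPM the depth behind low values is unknown, which limits *Cyp2c39*, *Cyp2c40*, *Cyp2c55* and *Cyp2c69* most.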
